A study of Mus musculus and other sequences with 2 samples.

Results

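The miR-200 family comprises 5 mature miRNAs, namely mmu-miR-200a, mmu-miR-200b, mmu-miR-200c, mmu-miR-141 and mmu-miR-429. They were chosen by name, from every mouse assay of these numbers on the array without the # that marks a minor arm. This gave 7 of 750 miRNA assays of a TaqMan rodent array, with 5 on its card A and 2 on its card B, since miR-200b and miR-200c each had an assay on both cards. For the conditioned sample, zygotes of superovulated CD1 females, 3 weeks old per the labels and mated with CD1 males, were cultured at 5% O2 and 5% CO2. From them, 25 embryos were moved at 99 h post-hCG to an 8 μL microdroplet of KSOM and kept there for 17 h, until 116 h. The labels call these embryos blastocysts throughout, and the methods call them compacted or cavitating morulae at 99 h. The blank microdroplet of the same media held no embryos. Both media were free of BSA, and contained 0.1% of a polymer that the labels give as polyvinylacetate where the methods elsewhere name polyvinyl alcohol. There was 1 sample of each, so no test between them was possible, and each value below is the Ct of a single well. A Ct is the cycle at which the fluorescence of a well crosses a threshold, and a lower Ct stands for more template on a log2 scale that runs backwards. Where the threshold was never crossed, the Ct is undetermined, and a sequence was called detected at a Ct below 35. The study also required a minimum change in fluorescence, which was not applied here, so detection here is the looser call. By Ct alone, 280 of 750 miRNA assays were detected in conditioned media and 218 in blank media, more than the study counted. How many embryos or cells contributed to the media and how much RNA each released cannot be told apart.

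The miR-200 family is known as a mark of epithelial cells, in which its members repress the transcription factors Zeb1 and Zeb2 and so sustain E-cadherin. Its loss accompanies the transition of epithelial cells to a mesenchymal state. In the blastocyst, the trophectoderm is an epithelium that surrounds the cavity and the inner cell mass. A mature miRNA is cut from one arm of a hairpin, and recognises its targets mainly through the seed, the bases 2 to 8 from its 5′ end. In a TaqMan miRNA assay, the primer for reverse transcription pairs with the 3′ end of the mature sequence.

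Mature sequences in RefSeq (GRCm38.p6) were found for all 5 names, as the 3p arm of each hairpin. They are shown because the members fall into groups by a single base of the seed, which is given in capitals.
miR-200b: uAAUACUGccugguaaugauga
miR-200c: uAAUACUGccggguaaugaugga
miR-429: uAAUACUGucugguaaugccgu
miR-200a: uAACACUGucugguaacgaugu
miR-141: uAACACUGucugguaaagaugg
The miR-200b seed was found in 3 of the 1679 mature mouse sequences of the table (0.179%) and the miR-200a seed in 2 (0.119%), so that no other mature miRNA of the table shared either. The seeds differ by the substitution C4U, with miR-200a as reference and miR-200b as the other sequence, and positions counted from the 5′ end. Over the 22 positions compared without gaps, 15 were the same in all 5 members. The closest pairs were miR-200a with miR-141, and miR-200b with miR-200c, each with 2 bases that differed. Relative to miR-200a, miR-141 carries C17A and U22G, and relative to miR-200b, miR-200c carries U11G and A22G. The last 6 bases, at the end where that primer pairs, were not the same in any pair.

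**Figure D1:**
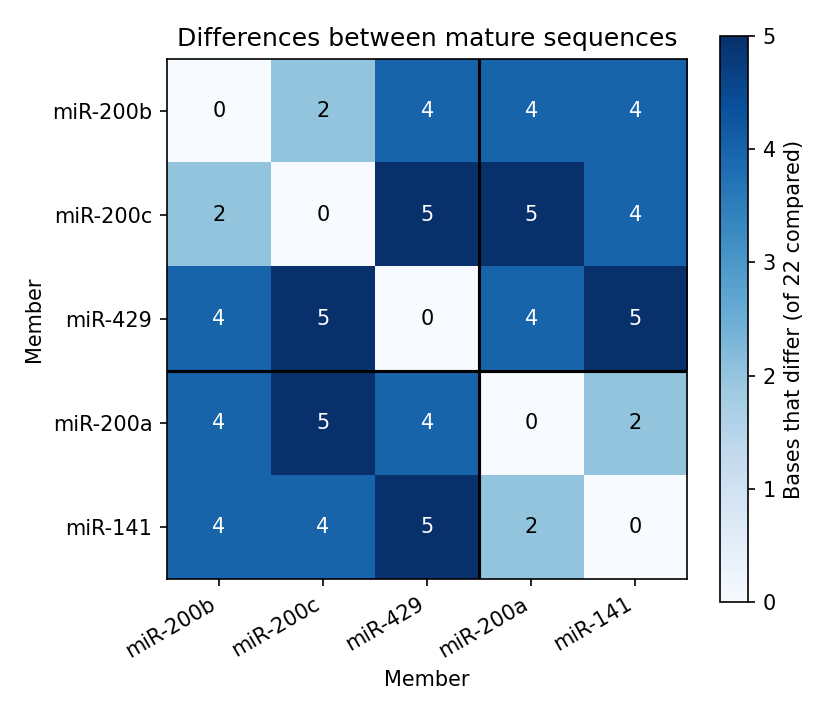
Number of bases that differ between the mature sequences of each pair of members, over 22 positions compared without gaps from the 5′ end. The black lines separate the members with the seed of miR-200b from those with the seed of miR-200a. The pairs miR-200b with miR-200c and miR-200a with miR-141 differ at 2 positions, and all other pairs at 4 or 5.

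The 5 hairpins lie in 2 clusters, both transcribed from the minus strand. In GRCm38.p6, Mir429 (chr4:156053905-156053987), Mir200a (chr4:156054896-156054985) and Mir200b (chr4:156055681-156055750) span 1846 bp of chromosome 4. All 3 lie within the span of the long non-coding RNA gene Gm13648. Mir141 (chr6:124717914-124717985) and Mir200c (chr6:124718322-124718390) span 477 bp of chromosome 6, between Phb2 and Ptpn6 and within no other annotated gene. The deposited values name no genome build, and these positions are those of the annotation only. Each cluster holds both seeds. The hairpins of Mir200c and Mir141 are shown with the measured 3p arm in capitals, since these neighbours gave very different Ct values.
Mir200c: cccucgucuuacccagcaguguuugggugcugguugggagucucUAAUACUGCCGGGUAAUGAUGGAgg
Mir141: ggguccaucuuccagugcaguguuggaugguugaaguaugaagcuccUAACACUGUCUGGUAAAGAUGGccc

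Error between wells was taken from U6, a small nuclear RNA with 4 wells per card. In conditioned media, the mean U6 Ct of card A was 20.9 ± 0.68 (SD, n = 4 wells), and that of card B was 19.96 ± 0.83. The blank gave 24.98 ± 3.22 on card A, where 1 well at 20.2 stood apart from 3 between 26.3 and 27.1, and 27.0 ± 0.23 on card B. Without that well, the blank SD on card A was 0.49. None of the other control assays had a Ct in blank media. In conditioned media, the Ct was 28.5 and 29.8 for snoRNA202 and 33.0 and 29.3 for snoRNA135, on cards A and B. It was 32.7 for U87 on card A and 15.5 for Y1 on card B, each undetermined on the other card. That of ath-miR159a was undetermined on both cards. The miR-290 to miR-295 sequences, which mark the early embryo and embryonic stem cells, were detected in conditioned media only for 10 of 14 major-arm mouse assays and in blank media for none. By contrast, the miR-302 and miR-367 assays, which mark later pluripotent cells, were detected in both media for 3 of 5. Of the markers of other cells, 2 of 4 spermatozoan assays (miR-34b and miR-34c, with no mouse assay of miR-449a), 3 of 6 blood assays (miR-142, miR-144, miR-223 and miR-451) and 4 of 7 mesenchymal assays (miR-143, miR-145, miR-199a and miR-214) were detected in conditioned media. The same lists had 1, 4 and 3 assays detected in blank media. Of all miRNA assays, 37.3% were detected in conditioned media, 29.1% in blank media, 13.9% in conditioned media only and 23.5% in both. The part of these other cells in the results for the miR-200 family was not tested. On the array as a whole, 44 miRNA wells of conditioned media and 48 of blank media had a Ct below 15, and none of the 14 wells of the family did.

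All 7 assays of the family had a Ct in conditioned media, where 40.9% of all miRNA assays had one. In blank media, 3 of the 7 had a Ct, compared with 32.5% of all miRNA assays. At a Ct below 35, 5 of the 7 were detected in conditioned media (37.3% of all miRNA assays), and these covered 4 of the 5 names. In blank media, 2 of the 7 were detected (29.1% of all). Detection in conditioned media only was found for 3 of the 7 (13.9% of all), under the names miR-200b and miR-200c, and detection in both media for 2 (23.5% of all), namely miR-200a and miR-429. No assay of the family was detected in blank media only. Such assays were few on the whole array as well, since 29.1% were detected in blank media and 23.5% in both. The assay of miR-141 and 1 of the 2 assays of miR-200b had a Ct later than 35 in conditioned media.

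**Figure D2:**
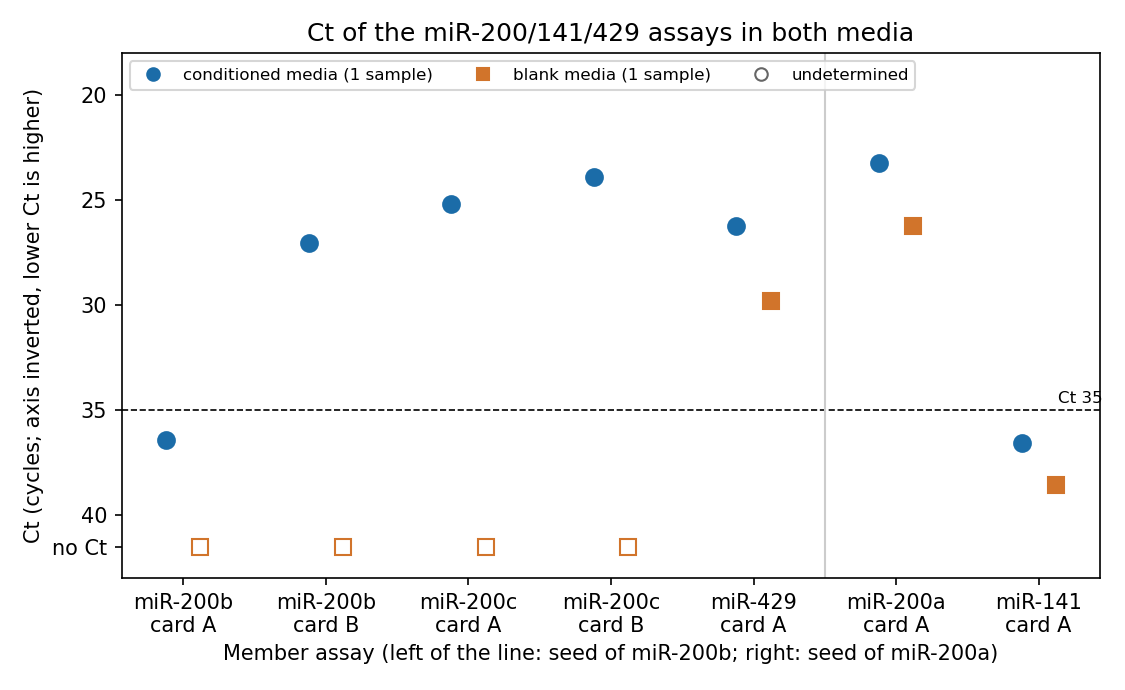
Ct of each of the 7 assays in conditioned media (blue circles) and blank media (orange squares), 1 well each, on an inverted axis with the limit of 35 as a dashed line and open symbols for wells without a Ct. The grey line separates the members with the seed of miR-200b from those with the seed of miR-200a. Every assay has a Ct in conditioned media, and the 4 wells of miR-200b and miR-200c in blank media have none.

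Within the group that shares the miR-200b seed, miR-200c was the member with the earliest Ct. In conditioned media, the card A well crossed the threshold at a Ct of 25.2 and the card B well at 23.9, and both were undetermined in blank media. These values lay 9.83 and 11.1 cycles before the limit of 35, so that both assays placed miR-200c in conditioned media only, well away from the limit. For miR-200b, conditioned media gave a Ct of 27.0 with the assay of card B, 7.98 cycles before the limit, and of 36.4 with that of card A. Neither had a Ct in blank media. The 2 assays of miR-200b thus fell on opposite sides of the limit, although both gave a Ct only where embryos had been present. The third sequence of this seed, miR-429, had its Ct at 26.2 with embryos and at 29.8 in the blank. It was the only one of the 3 with a Ct in blank media.

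Within the group that shares the miR-200a seed, both members had a Ct in both media, at very different cycles. The Ct of miR-200a was 23.2 with embryos and 26.2 in the blank, the earliest of the family in each. The Ct of miR-141 was 36.6 with embryos and 38.6 in the blank, in each the latest that any assay of the family gave. The mature sequences of miR-200a and miR-141 differ at 2 positions, as shown above, and their Ct in conditioned media lay on opposite sides of the limit. Assays differ in efficiency, so the distance between their Ct values does not measure a ratio of amounts.

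For the 3 members with a Ct in both media, all on card A, the Ct was earlier in conditioned media without normalization, and later relative to U6. Without normalization, subtracting the blank Ct from the conditioned Ct gave -1.99 cycles for miR-141, -3.002 for miR-200a and -3.60 for miR-429. A Ct earlier in conditioned media was found for 49.7% of all 193 miRNA assays with a Ct in both media, and 52.4% of the 105 of card A, whose median difference was -0.13 cycles. A difference at least as early as that of miR-429 was found for 22.9% of those 105 assays, as early as that of miR-200a for 28.6%, and as early as that of miR-141 for 39.0%. The 3 differences lay close to each other, within 1.61 cycles, and inside the range of the card, from -13.5 to 19.98 cycles. The SD of the U6 wells given above describes wells of 1 sample. On card A, these wells lay between 19.9 and 21.3 in conditioned media and between 20.2 and 27.1 in blank media. Their SD measures neither the error of a difference between microdroplets nor the error of wells as late as those of miR-141. None of the 3 differences could therefore be set against its own error.

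U6 itself was earlier in conditioned media on card A, with a difference between means of -4.08 cycles, or -5.68 without the outlying blank well. Its wells therefore moved further than any of the 3 members. Taken relative to the mean of U6, the differences turned to 2.09 cycles for miR-141, 1.08 for miR-200a and 0.48 for miR-429, later in conditioned media. A direction for these 3 members therefore holds only without normalization or with centring on the median of the card, where the differences were -1.86, -2.87 and -3.47 in the same order. On card B, the U6 means differed by -7.07 cycles. Whether U6 was a fit reference between a microdroplet with embryos and one without was not tested, so neither direction was taken as settled. On the scale relative to U6, the value of each well in conditioned media was 2.33 cycles after U6 for miR-200a, 3.95 and 4.27 for the assays of miR-200c on cards B and A, and 5.31 for miR-429. It was 7.06 cycles after U6 for miR-200b on card B, and 15.5 and 15.7 for miR-200b and miR-141 on card A.

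**Figure D3:**
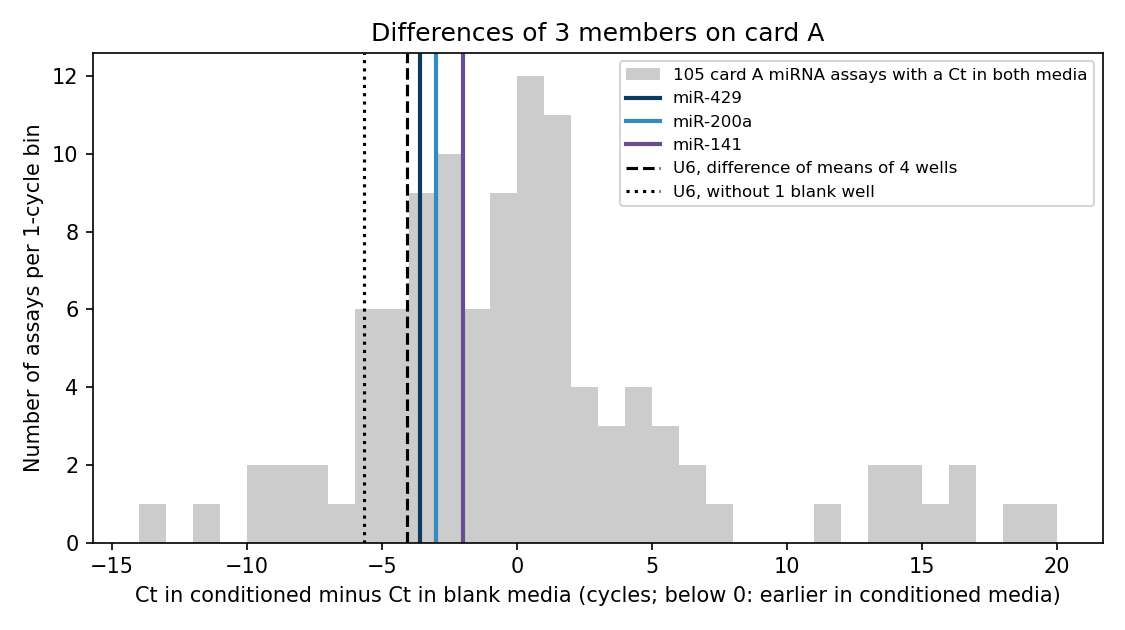
Ct in conditioned media minus Ct in blank media for the 105 miRNA assays of card A with a Ct in both media, in bins of 1 cycle (grey), with miR-429, miR-200a and miR-141 as coloured lines. Black lines give U6 as the difference between the means of its 4 wells (dashed, -4.08 cycles) and without the outlying blank well (dotted, -5.68 cycles). On this scale without normalization, the 3 members lie below 0, and they lie to the right of both U6 lines, so that relative to U6 they are later in conditioned media.

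In order of Ct in conditioned media, the assays ran from miR-200a (card A) through miR-200c (card B), miR-200c (card A), miR-429 (card A) and miR-200b (card B) to miR-200b and miR-141 (both card A). Among the first 5, neighbouring assays were 0.69, 1.25, 1.05 and 0.81 cycles apart. After subtraction of the U6 mean of each card, these steps were 1.63, 0.31, 1.05 and 1.75 cycles. On either scale, some steps exceeded the SD of the conditioned U6 wells. All were smaller than the median difference between assays of the same name given below, so that neighbours were not separated beyond that spread. A gap of 9.39 cycles followed before the last 2 assays, which were 0.17 cycles apart. Relative to U6 of each card, the order of all 7 was the same.

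Among the 149 sequences detected on card A in conditioned media, ranked from the lowest Ct, miR-200a ranked 44, miR-200c 60 and miR-429 74. Among the 131 detected on card B, miR-200c ranked 71 and miR-200b 87. The median share of detected sequences with an earlier Ct than a member was 48.99%, from 28.9% for miR-200a to 65.6% for miR-200b. The ranked sequences include the 44 miRNA wells of conditioned media with a Ct below 15, each earlier than any member. Ranks without those wells were not taken. Among the sequences detected in conditioned media only, miR-200c ranked 11 of 55 on card A and 22 of 49 on card B, and miR-200b ranked 25 of 49 on card B.

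**Figure D4:**
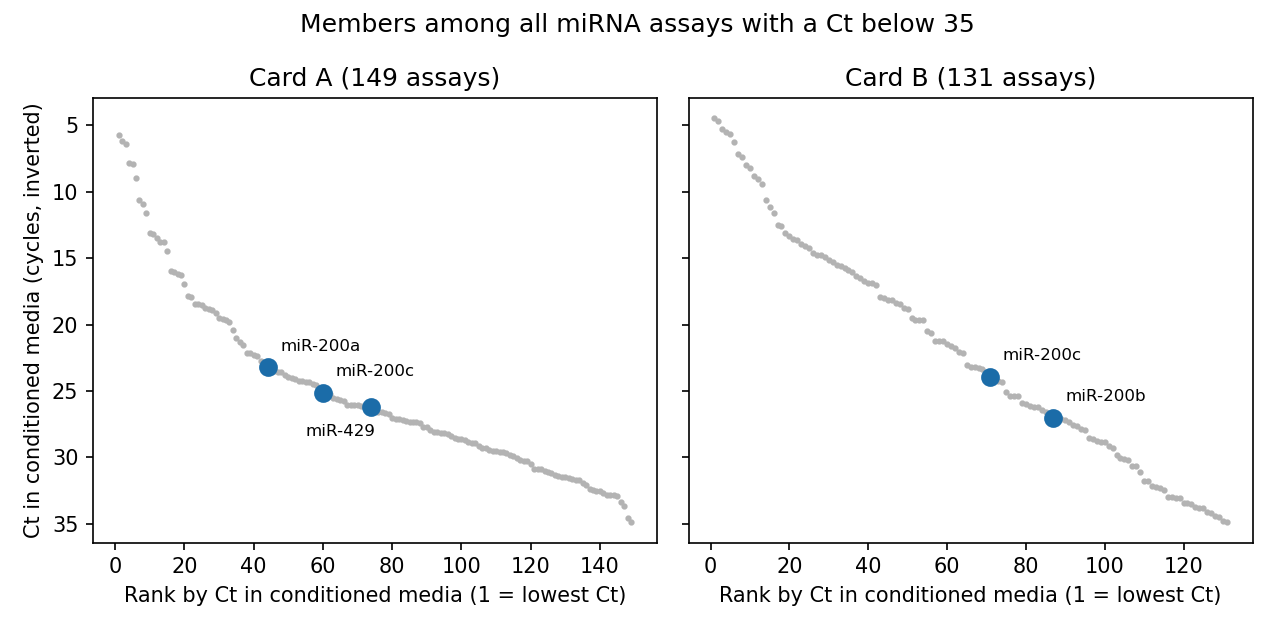
Ct in conditioned media (inverted axis) against rank for every miRNA assay detected on card A (left, 149 assays) and card B (right, 131 assays), with members in blue. The members lie at ranks 44, 60 and 74 on card A and 71 and 87 on card B.

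The assays most like each member were taken as those of the same card without a Ct in blank media whose Ct in conditioned media was nearest, over 2 samples. On card A, among 60 candidates, these were miR-293, miR-193b and miR-101 for miR-200c, with a Ct of 24.6, 26.0 and 24.2. On card B, among 52 candidates, they were let-7f-1#, miR-292-3p and miR-690 for miR-200c, with a Ct of 23.2, 23.0 and 26.2. For miR-200b on card B they were miR-136, miR-467a and miR-136#, with a Ct of 27.1, 27.1 and 26.4. Of these, miR-293 and miR-292-3p belong to the embryonic miR-290 to miR-295 sequences. With a single Ct behind each, likeness means a similar cycle and no more.

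In conditioned media, the family held both the closest and the farthest pair of assays of the same name. There, 8 names had 2 assays that both gave a Ct, 7 of them with the assays on different cards. These assays differed by a median of 4.67 cycles. The smallest difference, 1.25 cycles, was that of miR-200c, and the largest, 9.39 cycles, that of miR-200b. Relative to U6 of each card, the difference was 0.31 cycles for miR-200c and 8.45 for miR-200b. In blank media, where neither name had a Ct, only miR-223 and miR-217 had a Ct in both of their assays, which differed by 2.18 and 14.7 cycles. Which sequence each of the 2 assays is directed to was not found in the sources used here.

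The minor arms of 4 of the hairpins had an assay, all on card B, and are the 5p arms in RefSeq. They are shown, with bases 2 to 8 in capitals, since their values did not follow those of the major arms.
miR-200a#: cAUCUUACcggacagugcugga
miR-200b#: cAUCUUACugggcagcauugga
miR-200c#: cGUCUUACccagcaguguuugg
miR-141#: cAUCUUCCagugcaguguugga
The assays of miR-200a#, miR-200b# and miR-200c# were undetermined in both media, although the major arm of each had a Ct between 23.2 and 27.0 in conditioned media in at least 1 assay. The Ct of miR-141# was 26.2 with embryos and 23.0 in the blank, 3.21 cycles later with embryos than without. In this hairpin, the minor arm thus had the earlier Ct of the 2 arms in both media. Arms were measured by different assays, and those of miR-141 on different cards that were pre-amplified apart. Their Ct values therefore do not compare amounts of the arms. Across the array, 28.7% of the 122 minor-arm assays had a Ct in conditioned media.

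By cluster, the members of chromosome 4 gave a Ct in conditioned media of 23.2 for miR-200a, 26.2 for miR-429 and 27.0 and 36.4 for miR-200b, of which only miR-200b had no Ct in blank media. Those of chromosome 6 gave 25.2 and 23.9 for miR-200c and 36.6 for miR-141, of which only miR-200c had no Ct in blank media. Each cluster therefore held a sequence with at least 1 assay exclusive to conditioned media and a sequence with a Ct in both. By seed, both names with an assay exclusive to conditioned media at a limit of 35 carried the seed of miR-200b. That seed is carried by 3 of the 5 members, and miR-200b was exclusive by its card B assay only. At a limit of 38, miR-141, which carries the seed of miR-200a, was exclusive to conditioned media as well.

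The array held 5 other miRNAs known to be high in epithelia, each with 1 assay on card A. At a Ct below 35, 3 were detected with embryos (37.3% of all miRNA assays) and 2 in the blank (29.1% of all). Detection in conditioned media only was found for 1 (13.9% of all). With 5 assays, these counts were not tested against the shares of the array. The assay exclusive to conditioned media was that of miR-182, from a cluster that is abundant in sensory epithelia. Its Ct was 28.9 with embryos, and the blank gave none. For miR-96, which comes from the same cluster, the Ct was 22.4 in both media, a difference of -0.05 cycles. The assay of miR-183, the third sequence of that cluster, was undetermined in both. The assay of miR-203, a miRNA of the skin epithelium, gave 30.5 with embryos and 24.5 in the blank, 6.06 cycles later with embryos. The assay of miR-205, known from stratified epithelia, was undetermined in both media. No difference between this list and the miR-200 family could be tested.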

How the data were processed

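Whole media lysates of 1 conditioned and 1 blank microdroplet were reverse transcribed and pre-amplified for 12 cycles for cards A and B separately, so that ranks were taken within a card. The values analysed were Ct values per well, as deposited by the authors with no normalization. Threshold and baseline settings were not found in the sources used here, and the fluorescence change ΔRn, on which the study also filtered, was not analysed. A deposited table of the authors' fold changes was not used. The members and lists were chosen with earlier results of these data known.

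Sequences were called detected at a Ct below 35, with undetermined wells counted as above it and the 18 control wells left out. Differences were taken as conditioned Ct minus blank Ct. With 1 sample per condition, no test was run, and U6 wells and assays of the same name gave the only measure of error, which covers neither cultures nor embryos. Named in the text were all assays of the 5 members, their minor arms, control assays, an epithelial list (miR-203, miR-205, miR-182, miR-183 and miR-96), lists of embryonic, spermatozoan, blood and mesenchymal miRNAs given as counts, and the 3 most similar assays per member exclusive to conditioned media. No rat assay of these numbers was present. Names were matched to RefSeq with the suffix 3p, or 5p for minor arms. Alternatives were Ct limits of 32 and 38, any determined Ct, names in place of assays, an undetermined Ct required in blank media, wells with a Ct below 15 left out, normalization to U6 or the card median, and ranks over both cards. Sorting into classes was tested on simulated data for 750 assays, where 3 of 3 classes were recovered. The simulated classes were made with the same limit of 35, so this checked the sorting and not whether a call is right. Analyses were run under Python 3.11.15 with numpy 2.4.6, pandas 2.3.3 and matplotlib 3.10.9.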

Additional observations from a re-analysis of the deposited data

How the results depend on the processing

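The number of assays detected in conditioned media only, 3 at a Ct limit of 35, was 3 at 32, 5 at 38 and 4 with any determined Ct. At 38, the added assays were miR-141 and the assay of miR-200b on card A. It was also 3 when an undetermined Ct was required in blank media, and when wells with a Ct below 15 were left out. With each name counted by its assay of lowest Ct, it was 2 names. With every assay of a name required, 3 names were detected in conditioned media and 1, miR-200c, in conditioned media only, as 1 assay of miR-200b had a Ct later than 35. By card, a choice added after seeing the data, card A had 3 assays detected in conditioned media and 1 in conditioned media only, and card B had 2 in conditioned media, 0 in blank media and 0 in both. Over all miRNA assays, card A had 149 of 374 detected in conditioned media, 122 in blank media and 55 in conditioned media only. Card B had 131 of 376, 96 and 49. At a limit of 35, 13.9% of all miRNA assays were detected in conditioned media only. No such share was taken at the other limits or by name, so those counts describe the members only.

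All 3 differences between media changed sign relative to U6. For miR-141, miR-200a and miR-429 they were 2.09, 1.08 and 0.48 cycles with the mean of U6, and 3.10, 2.09 and 1.495 with its median. Without the outlying blank U6 well, a choice added after seeing the data, they were 3.69, 2.68 and 2.08. These follow from the earlier Ct of U6 in conditioned media. Centring on the card median kept each sign. The median share of detected sequences with an earlier Ct was 47.9% over both cards together and 42.9% among sequences exclusive to conditioned media, and the counts of the epithelial list were the same at limits of 32 and 38. No paired analysis was possible because each medium had 1 sample. Single wells limit every value to the error between wells and assays.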
